A study of Mus musculus with 12 samples.

Results

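The integrated stress response was examined in kidney cortex of the TRACK mouse through 38 genes, selected by symbol from a list of known pathway genes. They comprise 7 transcription factors and co-regulators, 6 kinases and translation regulators, 3 secreted hormones, 5 target genes of amino acid, glutathione and lipid metabolism, 12 cytosolic tRNA synthetases and 5 endoplasmic reticulum (ER) stress genes. All 38 were found among the 37681 genes of the deposited table, and all 38 were among the 19399 genes with enough reads to be tested.

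The γ-HIF1αM3 transgene of TRACK mice encodes a mutant HIF1α that is always active and is made in the proximal tubules, and the mice serve as a model of clear cell renal cell carcinoma (ccRCC). The 3 transgenic (TG+) mice, 43-29, 43-49 and 43-75, were compared with 3 wild-type littermates (TG-), 43-26, 43-50 and 43-76. All 6 were untreated C57BL/6 males of 18 months. RNA came from a thin outer slice of cortex of both kidneys of each mouse, so the active HIF1α was made in 1 cell type of a tissue that also holds other nephron segments, vessels, stroma and immune cells. The transgene itself was not analysed here.

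In the integrated stress response, kinases that sense a shortage of amino acids (GCN2, encoded by Eif2ak4) or misfolded protein in the ER (PERK, encoded by Eif2ak3) phosphorylate the translation factor eIF2α. General translation then slows, while the mRNA of the transcription factor ATF4 is translated better. ATF4, with C/EBP partners, binds composite C/EBP-ATF response elements and switches on genes of amino acid uptake and synthesis, cytosolic tRNA synthetases and genes that switch the response off again. ER chaperones such as BiP are controlled mainly by the sister branches of the unfolded protein response, through ATF6 and XBP1.

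The reads of both kidneys of each mouse were added, which gave 48052131 to 60506785 reads per mouse. Levels are given as CPM, read counts scaled to the TMM-normalized depth of each mouse, with the SD over 3 mice. Kidneys 1 and 2 of the same mouse differed in these genes by a median absolute log2 ratio of 0.04 to 0.06 per mouse against 0.09 to 0.11 over all tested genes. The largest ratios of a member were 0.44 to 0.45 in the TG+ mice, and in the TG- mice 0.71 for Chac1 in 43-50 and 2.26 and 3.22 for Fgf21, which had 3 reads over all TG- mice, in 43-26 and 43-76. HIF1 target genes followed the genotype labels. Car9 lay between 122 and 166 CPM in the TG+ mice and between 11.7 and 17.6 CPM in the TG- mice, while the endogenous Hif1a gene averaged 95.7 ± 11.8 CPM in TG+ and 104 ± 2.17 CPM in TG- mice (SD, n = 3 each).

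Of the 38 members, 9 showed more than 2-fold higher mRNA levels in TG+ cortex at an adjusted p below 0.01 (edgeR's quasi-likelihood test over all tested genes). At the same adjusted p, 0 members were below 0.5-fold by edgeR or DESeq2, and 3 were lower at an unadjusted p below 0.05. The 9 genes were Atf3, Atf5, Ddit3, Eif4ebp1, Trib3, Fgf21, Stc2, Asns and Chac1. Of all tested genes, 732 (3.77%) passed this threshold as higher and 41 (0.211%) as lower. At an adjusted p below 0.05 with no minimum fold change, 19 members were higher and 2 lower, against 15.4% and 10.9% of all tested genes. The levels of the groups did not overlap for 26 members that were higher in TG+ mice and 2 that were lower, where 23.4% and 20.8% of all tested genes separated in these directions. For each of these members an exact permutation test of all 20 ways to split the mice gave a two-sided p of 0.1, the smallest it can give. Separation of 3 against 3 mice fixes this value, so it adds nothing to the separation itself. The median log2 fold change of TG+ over TG- was 0.30 over the 38 members and 0.01 over all tested genes. Scaling by library size alone moved the median of all tested genes to 0.13 and the higher share of the genes at an adjusted p below 0.05 from 58.6% to 82.6%. That scaling shifts all genes alike, so the members' median of 0.29 above that of all genes does not depend on it.

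The rise was uneven across the roles, as the plot of log2 fold changes by role shows. The genes past the threshold were transcription factors, regulators, hormones and the metabolic targets Asns and Chac1. None of the 12 synthetases and none of the 5 ER stress genes reached a 2-fold difference by edgeR or DESeq2. Of all tested genes 3.77% passed the threshold as higher, so 0 in lists this small is near that share.

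**Figure D1:**
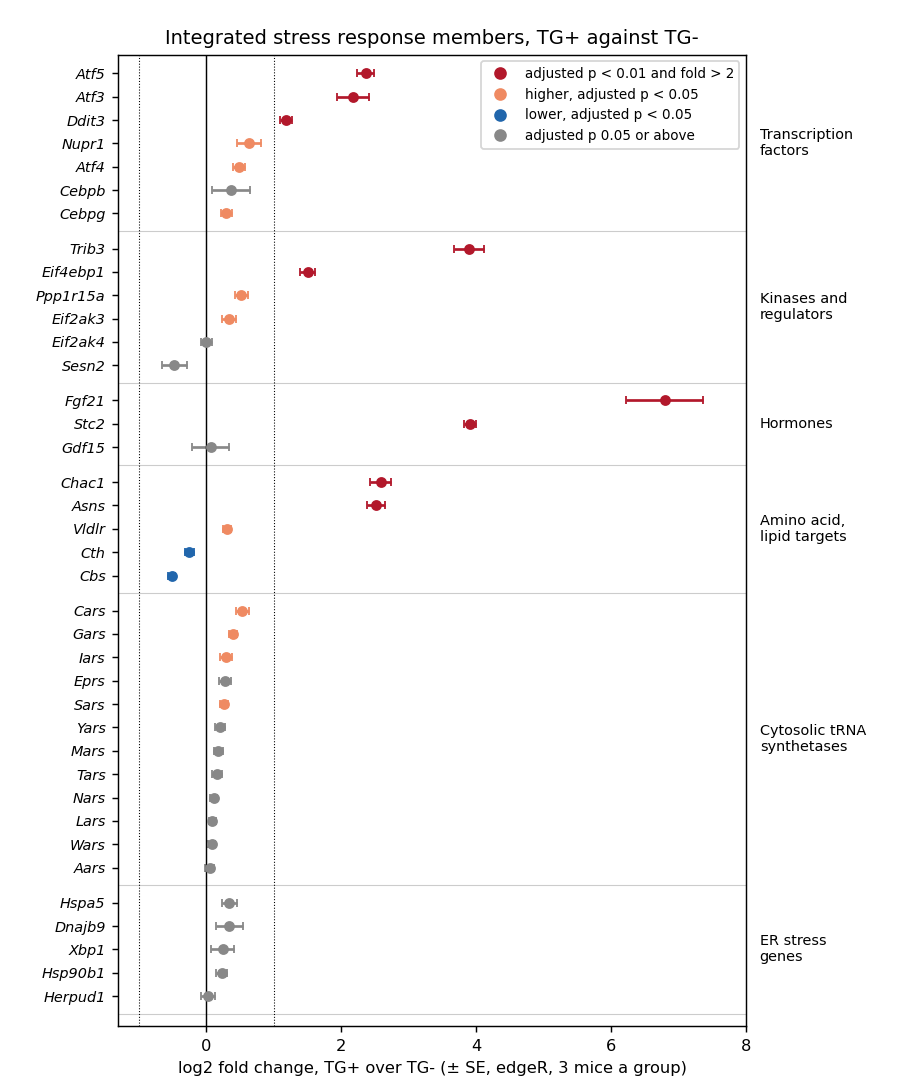
Log2 fold change of TG+ over TG- cortex for the 38 members, grouped by role (points, with the standard error of the edgeR fit, 3 mice a group). Dotted lines mark 2-fold differences, and all 12 synthetases and all 5 ER stress genes lie between 0 and the right-hand line.

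Among the transcription factors, 3 of 7 passed the threshold and 6 of 7 were higher at an adjusted p below 0.05 (3.77% and 15.4% of all tested genes), with a median log2 fold change of 0.63. Atf4 (ENSMUSG00000042406) stood at 103, 115 and 90.4 CPM in the TG+ mice 43-29, 43-49 and 43-75, and at 71.1, 70.3 and 78.6 CPM in the TG- mice 43-26, 43-50 and 43-76. Every TG+ mouse was above every TG- mouse, but the difference in mRNA was modest, at 1.40-fold (log2 0.49 ± 0.09, SE, adjusted p = 0.00763, edgeR). Control of ATF4 acts largely on translation of its mRNA, which these data do not measure.

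Atf5 encodes a close relative of ATF4 that is itself translated under stress. It was at 57.2, 75.1 and 61.1 CPM in the TG+ mice against 14.2, 11.6 and 11.7 CPM in the TG- mice. The groups lay far apart, 5.15-fold (log2 2.36 ± 0.12, SE, adjusted p = 2.2e-05, edgeR). On the opposite strand the gene overlaps Il4i1, which was also higher (6.34 against 2.65 CPM, log2 1.26), and since the handling of strand is not given in the sources used here, reads from the shared stretch may have been counted for either gene.

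Atf3, an early stress-induced repressor and activator of the same family, was at 5.98, 5.5 and 5.87 CPM in the TG+ mice and at 1.66, 0.788 and 1.39 CPM in the TG- mice. The TG+ mice were nearly equal and all above the TG- mice, by 4.54-fold (log2 2.18 ± 0.24, SE, adjusted p = 0.000688, edgeR). Ddit3, which encodes the pro-apoptotic factor CHOP, was at 20.6, 22.3 and 18.5 CPM against 9.65, 8.95 and 8.53 CPM. This was a 2.27-fold difference with no overlap (log2 1.18 ± 0.09, SE, adjusted p = 0.000145, edgeR). Ddit3 overlaps the synthetase gene Mars on the opposite strand. Opposite-strand genes also overlap Cebpb (Tmem189), Ppp1r15a (Tulp2), Wars (Wdr25), Yars (C77080) and Herpud1 (Gm15890).

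The remaining factors moved less. Nupr1, a small chromatin-associated stress protein, rose by 0.63 on the log2 scale (adjusted p = 0.0356, edgeR), and Cebpg, a dimer partner of ATF4, by 0.30 (adjusted p = 0.0306, edgeR). Both calls were fragile, since that of Nupr1 was lost without any 1 mouse other than 43-26 (adjusted p up to 0.113, edgeR) and that of Cebpg without any 1 mouse other than 43-75 (up to 0.0885). Cebpb had a log2 fold change of 0.37 with an adjusted p of 0.369 (edgeR) and overlapping groups, since 1 TG- mouse, 43-50, stood at 19.9 CPM, above 2 of the 3 TG+ mice. Without 43-50 its log2 fold change was 0.76 (adjusted p = 0.0309, edgeR), without 43-26 it was 0.15 (adjusted p = 0.71, edgeR) and without 43-75 it was 0.21.

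Per kilobase of the longest annotated transcript, Atf4 was the most abundant of the 7 in both groups, at 36.3 ± 2.27 CPM per kb in TG- and 50.8 ± 6 CPM per kb in TG+ mice. In TG- cortex Atf5 stood at 6.9 ± 0.803 CPM per kb, below Cebpg, Ddit3 and Cebpb. In TG+ cortex it came next after Atf4, at 35.5 ± 5.19 CPM per kb, ahead of Ddit3 at 21.1 ± 1.97. The neighbours Ddit3 (9.33 ± 0.582) and Cebpb (8.95 ± 3.76) in TG- cortex lay within each other's spread, and the SD ranges of Atf3 (2.92 ± 0.128) and Nupr1 (2.77 ± 0.119) in TG+ cortex overlapped.

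**Figure D2:**
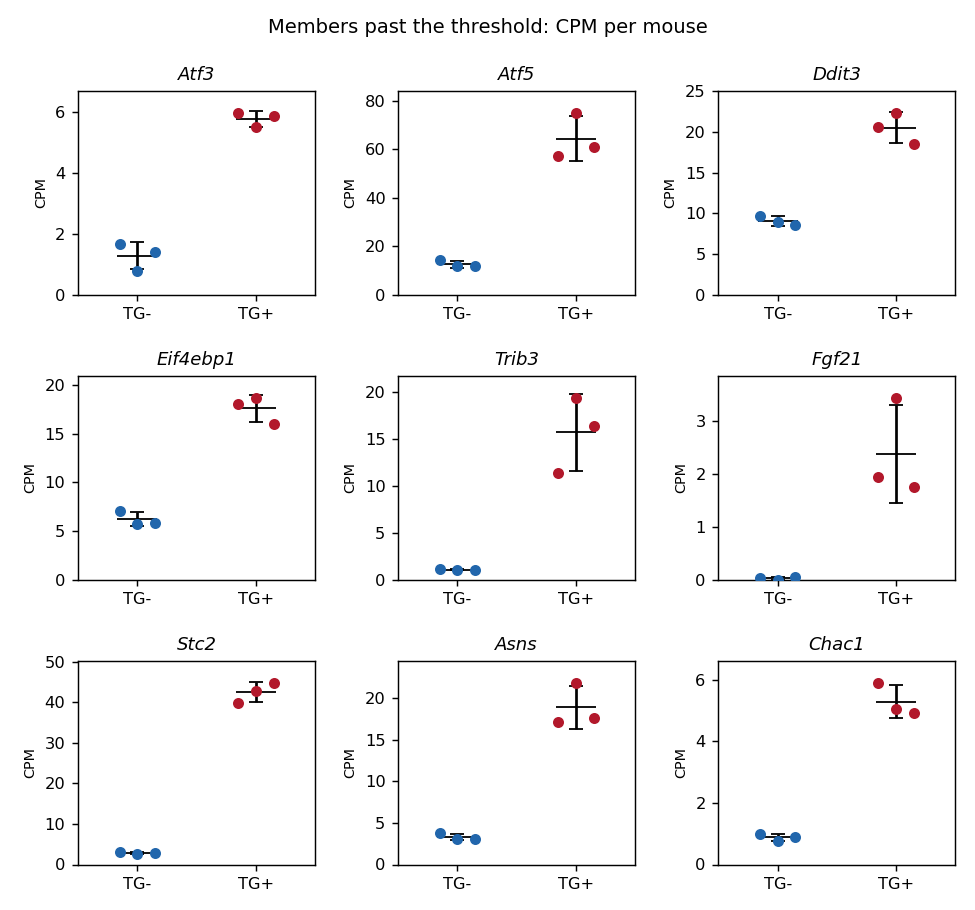
CPM in each mouse for the 9 members past the threshold (blue TG-, red TG+, points are mice, bars the mean ± SD of 3 mice, axes from 0). In every panel the lowest TG+ mouse is above the highest TG- mouse, and the TG- mice of Fgf21 lie at or near 0.

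Of the 6 kinases and regulators, 2 passed the threshold and 4 were higher at an adjusted p below 0.05 (3.77% and 15.4% of all tested genes). Eif2ak3 was at 70.9, 52 and 59.5 CPM in the TG+ mice and at 48.6, 47.6 and 47.9 CPM in the TG- mice, so that the 3 TG- mice were nearly equal and 43-49 stood only just above them (1.26-fold, log2 0.34 ± 0.10, SE, adjusted p = 0.0463, edgeR). Its call was lost without any 1 mouse other than 43-49, with an adjusted p of up to 0.122 (edgeR). Eif2ak4 was at 10.9, 12 and 10.6 CPM against 10.6, 11.1 and 11.7 CPM, with complete overlap and a log2 fold change of 0.00 ± 0.08 (SE, adjusted p = 0.984, edgeR).

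Trib3 encodes a pseudokinase that is induced by ATF4 and CHOP and restrains both ATF4 and AKT. It was at 11.3, 19.4 and 16.4 CPM in the TG+ mice and at 1.13, 0.981 and 1.04 CPM in the TG- mice. This 14.9-fold difference (log2 3.90 ± 0.22, SE, adjusted p = 3.07e-05, edgeR) placed Trib3 98th by fold change among all tested genes. Eif4ebp1, whose product 4E-BP1 holds back cap-dependent translation, was at 18.1, 18.7 and 16 CPM against 7.06, 5.73 and 5.83 CPM (2.84-fold, log2 1.50 ± 0.11, SE, adjusted p = 9.99e-05, edgeR).

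Ppp1r15a encodes GADD34, the phosphatase subunit that removes the phosphate from eIF2α and so ends the response. It rose by 0.52 on the log2 scale with no overlap between the groups (adjusted p = 0.00702, edgeR). Sesn2, a stress protein that represses mTORC1 when leucine is low, went the other way on average. It was at 81.3, 52.2 and 71.8 CPM in the TG+ mice and at 76.2, 94.6 and 114 CPM in the TG- mice, with overlapping groups (log2 -0.47 ± 0.19, SE, adjusted p = 0.0986, edgeR). DESeq2 gave it an adjusted p of 0.0231.

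The 3 hormones differed widely. Fgf21, a fasting and stress hormone known mainly from liver, had 379 reads in all in the TG+ mice and 3 in the TG- mice. Its levels were 1.94, 3.44 and 1.75 CPM against 0.0195, 0 and 0.0409 CPM. The ratio of TG+ to TG- reads scaled to depth was 127, with a 95% interval of 43.1 to 619 that covers counting error only, and the adjusted p was 0.000209 (edgeR). The fitted log2 fold change, which depends on the prior count at such low reads, was 6.79, and it was 6.20 without 43-50 and 7.68 without 43-76. Stc2, stanniocalcin 2, a secreted glycoprotein, was at 39.8, 42.8 and 44.8 CPM in the TG+ mice and at 3.1, 2.63 and 2.74 CPM in the TG- mice. The difference was 15.1-fold with a small spread in both groups (log2 3.91 ± 0.09, SE, adjusted p = 1.13e-06, edgeR), the smallest adjusted p of the 38 members. Gdf15, the stress hormone that signals to the brainstem, was at 8.15, 11 and 7.11 CPM against 5.13, 11.2 and 8.78 CPM. The groups overlapped throughout (log2 0.07 ± 0.27, SE, adjusted p = 0.884, edgeR).

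The metabolic targets split in direction. Asns, asparagine synthetase, was at 17.1, 21.8 and 17.6 CPM in the TG+ mice and at 3.76, 3.12 and 3.01 CPM in the TG- mice, 5.72-fold apart (log2 2.52 ± 0.13, SE, adjusted p = 2.2e-05, edgeR). Chac1, which encodes an enzyme that degrades glutathione, was at 5.9, 5.04 and 4.92 CPM against 0.994, 0.77 and 0.88 CPM, 5.99-fold apart (log2 2.58 ± 0.15, SE, adjusted p = 3.66e-05, edgeR). Vldlr, a lipoprotein receptor, rose by only 0.31 on the log2 scale (adjusted p = 0.0103, edgeR).

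Both genes of transsulfuration, the route from homocysteine to cysteine, were lower in TG+ cortex. Cth, cystathionine γ-lyase, was at 109, 122 and 109 CPM in the TG+ mice and at 130, 141 and 134 CPM in the TG- mice (log2 -0.25 ± 0.07, SE, adjusted p = 0.0271, edgeR). Cbs, cystathionine β-synthase, averaged 160 ± 7.73 CPM against 228 ± 2.78 CPM (SD, n = 3 each), a log2 difference of -0.51 ± 0.05 (SE, adjusted p = 0.00066, edgeR). These were the only 2 members for which every TG+ mouse lay below every TG- mouse. Leaving out 1 of 4 mice (43-29, 43-75, 43-50 or 43-76) ended the call of Cth, while that of Cbs held without each of the 6. Markers of the proximal tubule, whose cells express both genes, were lower as well, as given below.

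**Figure D3:**
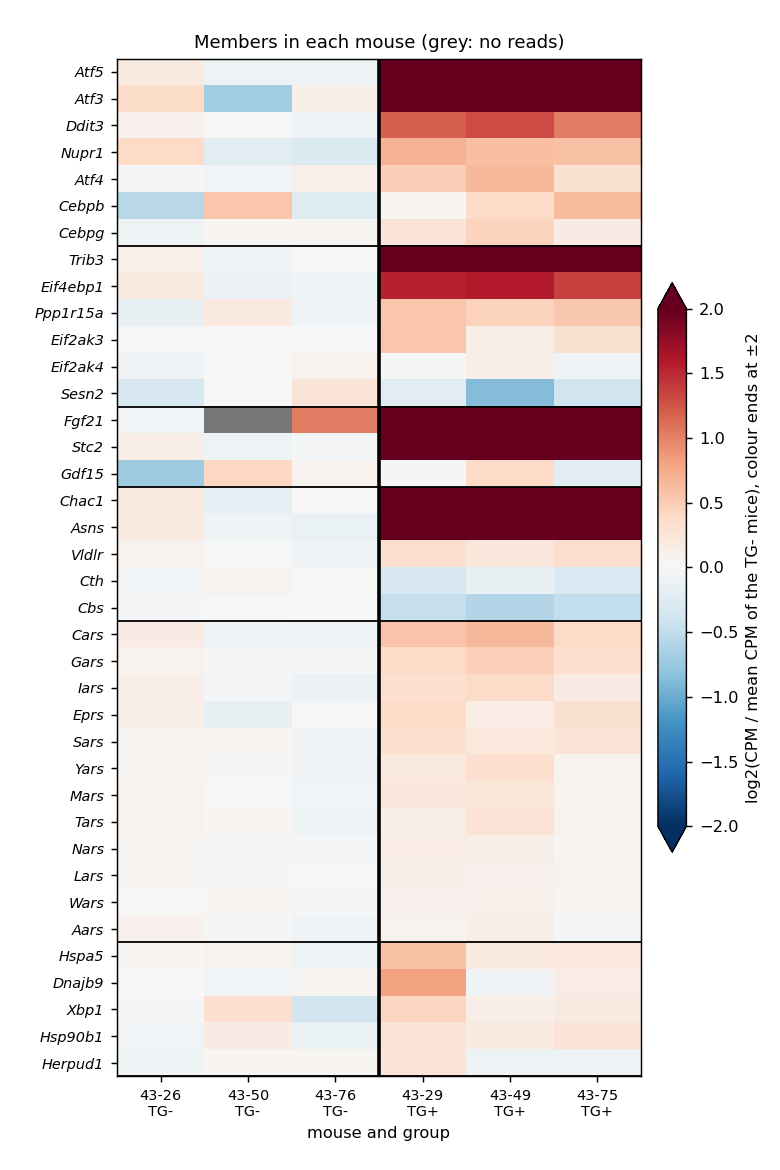
The 38 members in each of the 6 mice, as log2 of the CPM over the mean CPM of the 3 TG- mice (colour, ending at ±2, lines separate roles, grey marks no reads). The genes past the threshold are dark in all 3 TG+ columns, the synthetases are pale, and the 5 ER stress genes are each highest in the TG+ mouse 43-29.

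All 12 synthetases, the enzymes that load amino acids onto tRNAs for cytosolic translation, had log2 fold changes above 0, from 0.05 for Aars to 0.54 for Cars, with a median of 0.19. They stayed above 0 with each of the other scalings. Of the 12, 4 were higher at an adjusted p below 0.05 (edgeR), where 15.4% of all tested genes were: Cars at 0.54, Gars at 0.40, Iars at 0.30 and Sars at 0.26 on the log2 scale. The TG+ and TG- mice did not overlap for 9 of the 12, all higher in TG+, where 23.4% of all tested genes separated in that direction. Gars, for glycine, had the smallest adjusted p of the group. It was at 79.9, 84.6 and 77.1 CPM in the TG+ mice and at 63.9, 60.1 and 59.3 CPM in the TG- mice, a difference of 1.32-fold (log2 0.40 ± 0.06, SE, adjusted p = 0.00266, edgeR).

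Nars, for asparagine, was the most abundant of the 12 by the authors' mean RPKM. It was at 130, 128 and 122 CPM against 122, 115 and 114 CPM, with 1 TG- mouse, 43-26, reaching the range of the TG+ mice (log2 0.11 ± 0.05, SE, adjusted p = 0.17, edgeR). The loading enzyme for asparagine thus differed by 1.08-fold where the asparagine-making enzyme, Asns, differed by 5.72-fold. Aars, for alanine, averaged 121 ± 6.14 CPM in TG+ and 116 ± 6.82 CPM in TG- mice (SD, n = 3 each), with overlap (adjusted p = 0.598, edgeR). The largest of the 12 differences, in Cars for cysteine, was still 1.45-fold (21.9 ± 2.09 against 15.1 ± 1.57 CPM, SD, n = 3 each). Of the 12, 8 were highest in the TG+ mouse 43-49 and 4 in 43-29. The call of Iars was lost without 43-29, 43-49, 43-50 or 43-76 (adjusted p up to 0.126, edgeR) and that of Sars without 43-76 (0.0551), while Eprs (log2 0.28, adjusted p = 0.0516) was called in 8 of 15 alternatives, among them DESeq2 (adjusted p = 0.0298) and the fits without 43-49 or 43-26. The number of synthetases called depended on the analysis, from 2 without the TG- mouse 43-76 to 11 with library size scaling. It was 7 with a block for mouse pairs and 10 with each kidney counted as its own library, as if the kidneys of a mouse were independent. Library size scaling called 4511 of the 19399 tested genes as higher, against 2982 in the main fit. For the other fits named here the share of all tested genes is not given.

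The remaining cytosolic synthetases and synthetase complex scaffolds, 11 genes, were centred near 0. Their median log2 fold change was 0.01, with 6 above 0 and 5 below, and 2 of 11 were higher at an adjusted p below 0.05, a share near the 15.4% of all tested genes, Vars (0.32, adjusted p = 0.00716, edgeR) and Dars (0.23). The 17 mitochondrial synthetases lay on the other side. All 17 had log2 fold changes below 0, with a median of -0.16, although 4 of the 17 were above 0 with library size scaling, which raises all genes alike. In 11 of 17 every TG+ mouse was below every TG- mouse, and 4 passed an adjusted p of 0.05 as lower, where 20.8% and 10.9% of all tested genes did so. Rars2, for arginine, had the smallest adjusted p of these, at 28.8, 27.3 and 28.3 CPM in the TG+ mice against 35.1, 36.1 and 38 CPM in the TG- mice (log2 -0.37 ± 0.06, SE, adjusted p = 0.0031, edgeR).

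**Figure D4:**
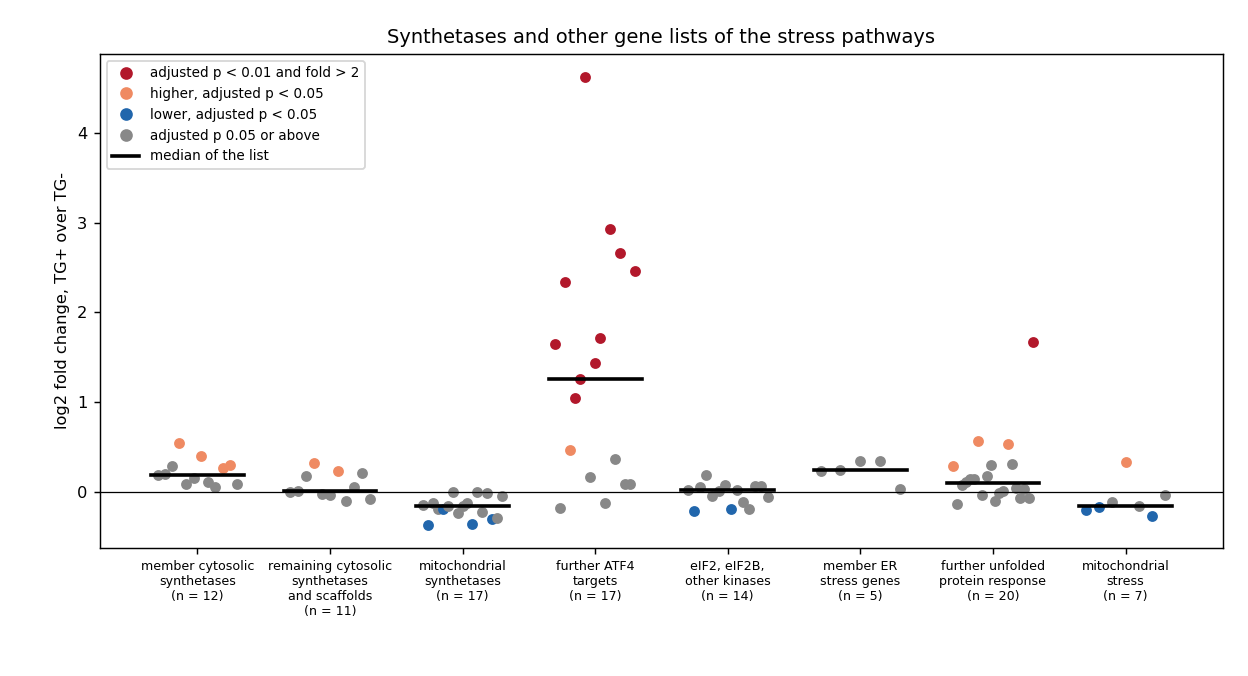
Log2 fold changes of TG+ over TG- for 2 groups of members and 6 further gene lists (points are genes, coloured by the call of the edgeR test, black bars the median of each list). The further ATF4 targets reach 4.63, the 17 mitochondrial synthetases all lie below 0, and the other lists centre between -0.16 and 0.25.

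None of the 5 ER stress genes was higher at an adjusted p below 0.05 by edgeR, against 15.4% of all tested genes, and DESeq2 called 1, Hspa5. At an unadjusted p below 0.05 stood 2 of the 5, and 7576 of the 19399 tested genes in either direction. Hspa5 was called in 7 of 15 alternatives and Hsp90b1 in 4, with adjusted p-values down to 0.0019 and 0.00235 when each kidney was its own library. Per kilobase of transcript Hspa5 was the highest of the 38 members, at 174 ± 10.4 CPM per kb in TG- and 221 ± 35.8 CPM per kb in TG+ mice. Herpud1 (166 ± 8.5) and Hsp90b1 (163 ± 18) followed in TG- mice, within its spread or close to it. Hspa5, which encodes the chaperone BiP, was at 964, 734 and 739 CPM in the TG+ mice and at 654, 668 and 596 CPM in the TG- mice. The groups did not overlap, but much of the difference came from 43-29 (log2 0.35 ± 0.11, SE, adjusted p = 0.0543, edgeR, and log2 0.19 without 43-29). Without 43-49 its adjusted p was 0.0414 (edgeR). Hsp90b1, the chaperone GRP94, had a log2 fold change of 0.23 (adjusted p = 0.0722, edgeR, and 0.013 without 43-50) and Xbp1, the factor spliced by IRE1, one of 0.25 (adjusted p = 0.326, edgeR), with 0.09 without 43-76 and 0.45 without 43-50. Herpud1, an ER degradation gene, had one of 0.03 (adjusted p = 0.884, edgeR). Dnajb9, a co-chaperone of BiP, was at 72.3 CPM in 43-29 and at 39.5 and 45.9 CPM in the other TG+ mice, against 41.4, 39.7 and 43.3 CPM in the TG- mice. Without 43-29 its log2 fold change was 0.03 instead of 0.34.

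All 5 ER stress genes were highest in the same TG+ mouse, 43-29. By contrast, of the 9 members past the threshold 6 were highest in 43-49, 2 in 43-29 and 1 in 43-75. Over all tested genes, the highest TG+ mouse was 43-29 for 33.1% and 43-49 for 38.3%. The ranking of the 3 TG+ mice was therefore not the same for the ER stress genes and the members past the threshold, a description of 3 animals.

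Further genes of the same pathways were examined from lists of 86 genes in all. The 17 further ATF4 targets moved most. Of these, 10 passed the threshold as higher and 11 were higher at an adjusted p below 0.05, against 3.77% and 15.4% of all tested genes, with a median log2 fold change of 1.26. The genes past the threshold included 2 of proline synthesis, Aldh18a1 at 90, 78.3 and 83.6 CPM in the TG+ mice against 3.94, 2.78 and 3.48 CPM (24.7-fold, log2 4.63, adjusted p = 1.87e-06, edgeR) and Pycr1 (log2 1.05). Pycr1 fell short of the threshold without any 1 mouse other than 43-29 (adjusted p up to 0.0202, edgeR), which left 9 of the 17 past it in those 5 fits. They included Phgdh, the first enzyme of serine synthesis (1.72), and Mthfd2 of mitochondrial folate metabolism (2.46). Among transporters, Slc7a1 for cationic amino acids rose by 1.65, Slc7a5 for large neutral amino acids by 1.43 and Slc7a11 for cystine by 1.26. The others were Ero1l, an ER oxidase (2.93), Ddit4, an inhibitor of mTORC1 (2.66), and the peptide hormone gene Adm2 (2.33).

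Within the same list Psat1 and Psph, which follow Phgdh in serine synthesis, had log2 fold changes of 0.08 (adjusted p = 0.777, edgeR) and -0.13 (adjusted p = 0.311). Slc3a2, the partner chain of Slc7a5 and Slc7a11, had one of 0.09 (adjusted p = 0.238, edgeR). Several genes of this list, among them Ddit4 and Ero1l, are also known HIF1 targets.

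Of 14 genes for the other eIF2 kinases, eIF2, eIF2B and their regulators, 0 were higher at an adjusted p below 0.05 by edgeR and 2 were lower, near the 10.9% of all tested genes, Gcn1, the activator of GCN2 (log2 -0.21, adjusted p = 0.0268), and Eif2ak1 (-0.19, adjusted p = 0.0285). DESeq2 also called 0 as higher, and at an unadjusted p below 0.05 edgeR had 1 higher and 3 lower. The call of Gcn1 was lost without 43-75, 43-26, 43-50 or 43-76 (adjusted p up to 0.0821). Of 20 further genes of the unfolded protein response, 4 were higher at an adjusted p below 0.05, near the 15.4% of all tested genes, and 1 passed the threshold, Derl3, which acts in ER degradation, at 4.89, 5.47 and 5.84 CPM against 0.994, 2.56 and 1.51 CPM (log2 1.67, adjusted p = 0.00577, edgeR). Without 43-29, 43-49, 43-75 or 43-76 Derl3 did not pass the threshold (adjusted p up to 0.0283, edgeR). Pdia4 (adjusted p = 0.0054, edgeR) had the smallest adjusted p, with a log2 fold change of 0.53. The sensors Ern1 and Atf6 had log2 fold changes of 0.03 and 0.11. Of 7 genes of the mitochondrial stress relay, chaperones and proteases, the protease Lonp1 was higher (log2 0.34, adjusted p = 0.00767, edgeR) and 3 were lower at an adjusted p below 0.05, Hspd1 (-0.27), Oma1 (-0.20) and Clpp (-0.17), where 15.4% of all tested genes were higher and 10.9% lower.

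The promoters of the members were searched for 3 motifs in the RefSeq promoter table of GRCm38.p6, which holds 250 bases before and 50 bases after each annotated start. The counts were made on mm9, so these positions are only those of the reference. Of the 38 members, 32 had an entry. The C/EBP-ATF response element was searched as TGATGNAA, or TTNCATCA on the opposite strand. It was found in 13 of the 32 members (40.6%), against 3.97% of 32851 promoters and 4.51% of 27025 genes. The element was present in 5 of 8 members past the threshold and in 8 of the 24 others, so it marked genes with large and with small differences. The following members past the threshold show it before the start (capitals mark the match, each written on the strand of its gene).
Atf3 (GRCm38.p6 chr1:191183420-191183459, minus strand): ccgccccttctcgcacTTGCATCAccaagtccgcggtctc
Fgf21 (GRCm38.p6 chr7:45615606-45615645, minus strand): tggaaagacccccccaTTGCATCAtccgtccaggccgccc
Asns (GRCm38.p6 chr6:7693210-7693248, minus strand): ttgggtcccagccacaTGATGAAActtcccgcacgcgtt
Chac1 (GRCm38.p6 chr2:119351033-119351072, plus strand): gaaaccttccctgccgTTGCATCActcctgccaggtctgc

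Members with log2 fold changes of 0.05 (Aars), 0.40 (Gars), 0.16 (Tars) and 0.03 (Herpud1) also matched the motif and are shown for comparison. Aars, Tars and Herpud1 held TTGCATCA, and Gars held TTTCATCA. The match of Aars and of Herpud1 began 112 bases before the start, close to the 110 bases of Atf3. Nupr1 (log2 0.63) held TTGCATCA at 110 bases and Vldlr (0.31) at 200 bases before the start.
Aars (GRCm38.p6 chr8:111033714-111033753, plus strand): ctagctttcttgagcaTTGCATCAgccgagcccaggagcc
Gars (GRCm38.p6 chr6:55037955-55037994, plus strand): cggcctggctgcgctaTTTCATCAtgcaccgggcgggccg
Tars (GRCm38.p6 chr15:11399659-11399689, minus strand): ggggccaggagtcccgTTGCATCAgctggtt
Herpud1 (GRCm38.p6 chr8:94386301-94386340, plus strand): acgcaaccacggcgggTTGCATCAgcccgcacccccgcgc

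Among synthetases, the element was found in 5 of 8 members with an entry, in 0 of 8 remaining cytosolic genes and in 0 of 14 mitochondrial ones. The members were selected as known genes of this response, so these motif shares are not independent of that selection. Of the further ATF4 targets, 3 of 16 held it in this window. The core of the hypoxia response element, ACGTG, was found on either strand in 14 of 32 members (43.8%). This compares with 19.6% of all promoters and 21.8% of genes. Other lists held it in 3 of 8 remaining cytosolic synthetase genes, 4 of 14 mitochondrial ones and 7 of 16 further ATF4 targets. The core was present in 3 of the 8 members past the threshold and in 11 of the 24 other members.

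The ER stress response element, CCAAT and CCACG with 9 bases between, was found on either strand in 0.119% of all promoters and 0.137% of genes. It was found in 2 of 32 members, the chaperone genes Hspa5 and Hsp90b1. Capitals mark the whole match, spacer included.
Hspa5 (GRCm38.p6 chr2:34772009-34772059, plus strand): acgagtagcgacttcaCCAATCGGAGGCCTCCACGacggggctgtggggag
Hsp90b1 (GRCm38.p6 chr10:86705622-86705672, minus strand): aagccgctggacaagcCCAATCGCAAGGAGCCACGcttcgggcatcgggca

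**Figure D5:**
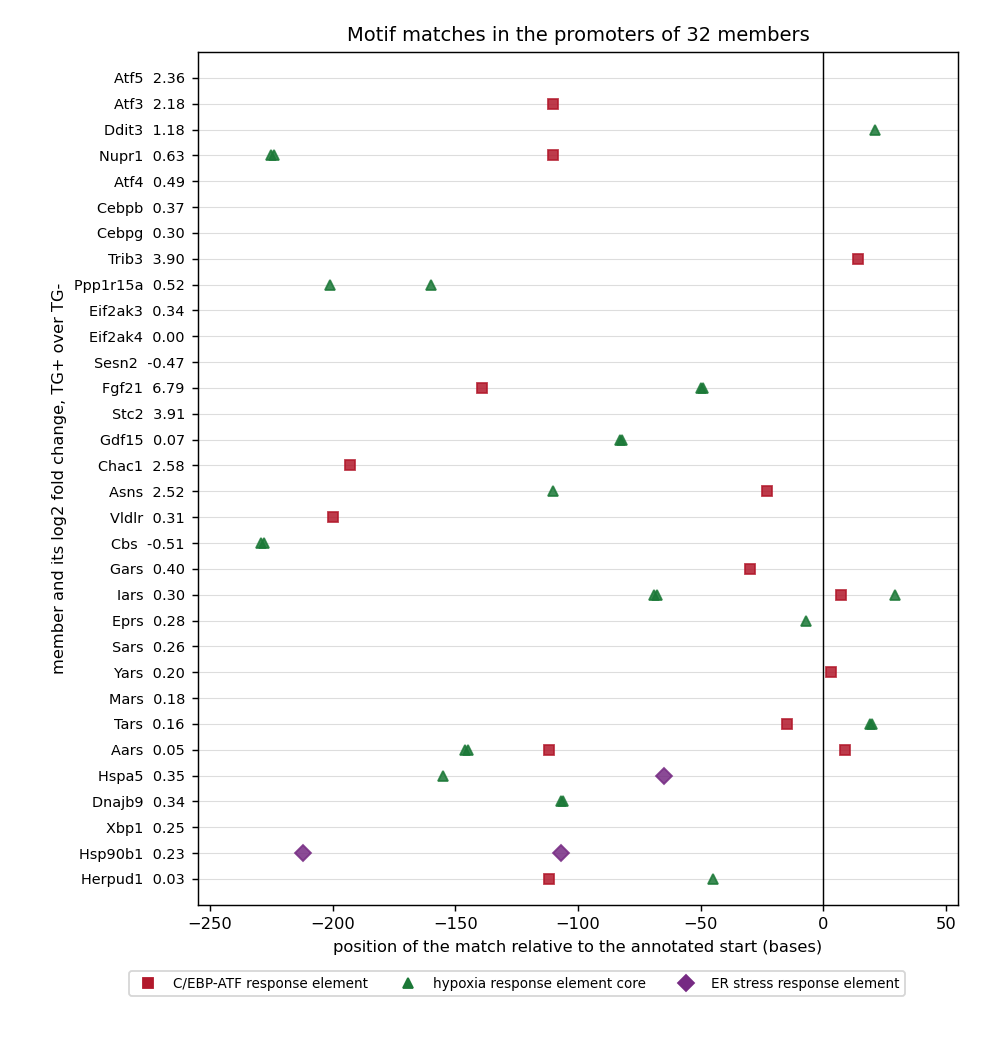
Positions of motif matches relative to the annotated start (x axis, in bases, matches drawn at their first base) in the promoters of the 32 members with an entry, with each log2 fold change beside the name. Squares for the C/EBP-ATF response element appear both at Fgf21 (6.79) and Asns (2.52) and at Aars (0.05) and Herpud1 (0.03).

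Marker genes of several cell types differed with the genotype, and fewer cells of a type and less RNA per cell cannot be told apart in these bulk samples. At an adjusted p below 0.05, 15.4% of all tested genes were higher and 10.9% lower, the shares to set beside the counts that follow. Of 12 proximal tubule markers, 11 had log2 fold changes below 0 and 7 were lower at an adjusted p below 0.05. Their summed level was 27734 to 30718 CPM in TG+ and 36216 to 38932 CPM in TG- mice. All 12 immune markers were above 0 and 10 were higher at an adjusted p below 0.05, with sums of 1469 to 2110 CPM against 499 to 618 CPM. All 6 endothelial markers (499 to 537 against 293 to 386 CPM), 5 of 7 stromal markers (253 to 347 against 158 to 193 CPM), 6 of 7 injured tubule markers (54.4 to 98.5 against 15.9 to 39.2 CPM) and 2 of 5 podocyte markers were higher as well. Of 8 markers of other nephron segments 0 were called by edgeR or DESeq2, with 1 at an unadjusted p below 0.05. No marker of these 7 lists was without reads in any mouse. Of 6 hepatocyte markers 5 could be tested and 1, Ttr, was higher, with sums of 96.2 to 119 against 42.3 to 63.8 CPM. The part of these shifts in the differences of the members was not tested.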

How the data were processed

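RNA from kidney cortex was sequenced as 51-bp single-end reads and, per the study's methods, analysed mainly with the Tuxedo tools. The submitters' processing notes name the build mm9, while the annotation release, the counter and the handling of strand are not given in the sources used here. The authors deposited read counts per Ensembl gene for 12 libraries (21888584 to 33704850 reads each), without normalization. They also deposited RPKM values, used here to find the most abundant gene of each role and to check gene lengths. Columns of the authors' own comparison (fold changes, p- and q-values) were not used.

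Counts of the 2 kidneys of a mouse were summed. Genes kept by filterByExpr were scaled by TMM and tested by the quasi-likelihood method of edgeR 4.0.16 in R 4.3.3 (limma 3.58.1), 3 mice against 3, and p-values were adjusted by Benjamini-Hochberg across 19399 genes. The threshold was that of the study, a fold change over 2 or under 0.5 at an adjusted p below 0.01. The alternatives were DESeq2 1.42.0, no filter, single kidneys, a block for mouse pairs, other scalings, other thresholds and leaving out each mouse. A further fit took each kidney as its own library, which counts the 2 kidneys of a mouse as independent and overstates the replication. The steps were tested on simulated data. Symbols and transcript lengths came from GENCODE M21, with 32642 of 37681 identifiers matched. Levels per length use the longest transcript, since the lengths implied by the RPKM differed from the annotation. Intervals cover counting error only.

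The members and all gene lists were chosen with earlier results of these data known, so their patterns are not independent support. Values per mouse are given, by rule, for members past the threshold, for the member of each role with the smallest adjusted p or the highest mean RPKM, and for Atf4, Eif2ak3 and Eif2ak4. Of the other lists, genes past the threshold and the one with the smallest adjusted p are named. Further genes, such as Cbs, Dnajb9, Psat1 and Ern1, were chosen after their values were seen.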

Additional observations from a re-analysis of the deposited data

How the results depend on the processing

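The 9 members past the threshold were past it in each of the 15 alternatives. These include centring on the median gene, which keeps the p-values of the main fit. At an adjusted p below 0.01 with no minimum fold change, 13 members were higher and 1 (Cbs) lower. The share of all tested genes at that rule is not given here, so these counts cannot be set against it. Members lower at an adjusted p below 0.05 numbered 2, and 1 with kidney 1 alone or library size scaling, 1 to 2 when a mouse was left out, and 3 with DESeq2 or each kidney as its own library. Library size scaling also left 1 member separated as lower. Synthetases higher at an adjusted p below 0.05 numbered 4, and 10 with each kidney as its own library, 11 with library size scaling and 2 to 5 when a mouse was left out. Mitochondrial synthetases lower numbered 4, and 11 with each kidney as its own library and 2 with library size scaling. The fit by kidney counts both kidneys of a mouse as independent. Library size scaling called 4511 of 19399 tested genes as higher and 947 as lower, against 2982 and 2105 in the main fit. For the fits other than the scalings the share of all tested genes is not given here. The median log2 fold change of the transcription factors was 0.63, and 0.75 with kidney 1 alone, 0.52 with kidney 2 alone, 0.75 with library size scaling and 0.54 to 0.88 when a mouse was left out. Library size scaling gave medians of 0.43 for the metabolic targets and 0.31 for the synthetases. The cause of these shifts was not tested, apart from library size scaling raising all genes.

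The log2 fold change of Eif2ak4, near 0, was -0.0095 with DESeq2, -0.0097 when centred on the median gene, -0.0843 with kidney 1 alone, -0.0024 with no filter, -0.0107 with upper-quartile scaling and -0.0596 to 0.0372 when a mouse was left out. Gdf15 ranged from -0.19 to 0.33 and Herpud1 from -0.118 to 0.084 when a mouse was left out.

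With the mouse pairs of the deposited table as a replicate block, 23 members were higher in place of 19, and 7 synthetases in place of 4. The deviations of paired mice correlated at 0.38, 0.34 and 0.01 over 10129 genes, and 43-75 did not correlate best with its own partner, so the numbers were not taken to pair the mice. With 3 mice a group, smaller differences than those called may go undetected.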
